A study of Mus musculus with 24 samples.

Results

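Small RNA of the obese, control-injected mouse liver was compared with that of the lean liver in 16 of the 24 libraries of the study, 8 named AM608 and 8 named RCD, each assigned by the group in its column name. The AM608 livers came from C57Bl/6J mice made obese by a high fat diet for 11 weeks. The obese mice were given 3.3 mg/kg of a locked nucleic acid (LNA) oligonucleotide by vein on 3 days in a row and were killed 7 days later. Its target, miR-608, is made in primates, and the labels state that no complementary mouse sequence was predicted. The RCD livers came from mice of the same strain and age on regular chow, which received no injection. Diet and injection therefore differed together, and their parts in any difference cannot be told apart. A further group of obese mice, AM132, received an LNA against miR-132 and entered the fit, and its values are given only beside a few named RNAs. The labels number the samples without naming a separate animal for each, so a p-value here refers only to how far the samples of a group spread, which may be technical.

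MicroRNAs are cut from hairpin precursors that can release a product from either arm, 5p or 3p. A miRNA bound to an Argonaute protein pairs with messenger RNAs mainly through its seed, bases 2 to 8 from the 5′ end, and lowers their translation or stability. In hepatocytes miR-122, miR-192 and miR-148a are abundant, and several miRNAs lie in introns of genes of lipid and coenzyme A metabolism. Transfer RNA fragments (tRFs) are pieces of tRNAs cut in the anticodon loop, the D loop or the T loop. Those that end in CCA keep the 3′ end that a mature tRNA carries.

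The mature miRNAs on which the results below turn are shown first, from RefSeq on GRCm38.p6, 5′ to 3′ with the seed in capitals. The first set holds the miRNAs that stood furthest above lean liver by size or p, with the paired arms of 2 hairpins.
miR-149-5p: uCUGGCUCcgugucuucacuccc
miR-205-5p: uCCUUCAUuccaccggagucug
miR-582-5p: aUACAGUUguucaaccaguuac
miR-582-3p: uAACCUGUugaacaacugaac
miR-676-3p: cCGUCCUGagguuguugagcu
miR-802-5p: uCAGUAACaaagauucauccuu
miR-802-3p: aCGGAGAGucuuugucacucag
The second set pairs miRNAs of the same seed that were higher in AM608, so that the shared capitals can be read against the differing tails. Positions count from 1 at the 5′ end, and miR-103-3p and miR-107-3p differ by G22C alone.
miR-103-3p: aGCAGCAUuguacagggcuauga
miR-107-3p: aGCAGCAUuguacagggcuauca
miR-148b-3p: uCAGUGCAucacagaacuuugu
miR-152-3p: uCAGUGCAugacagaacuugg
miR-221-3p: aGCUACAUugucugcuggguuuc
miR-222-3p: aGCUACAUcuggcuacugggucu
miR-294-3p: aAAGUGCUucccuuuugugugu
miR-295-3p: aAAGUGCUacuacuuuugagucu
let-7d-5p: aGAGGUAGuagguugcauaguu
let-7f-5p: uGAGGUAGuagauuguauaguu
The third set holds miRNAs that were lower, miR-21a-5p, miR-674-3p and 5 from the Dlk1-Dio3 region, where the 3p arms of miR-379 and miR-411 share a seed.
miR-21a-5p: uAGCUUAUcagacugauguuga
miR-674-3p: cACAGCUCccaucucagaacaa
miR-299a-3p: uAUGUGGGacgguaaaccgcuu
miR-379-5p: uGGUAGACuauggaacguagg
miR-379-3p: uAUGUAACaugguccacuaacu
miR-411-5p: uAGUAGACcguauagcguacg
miR-411-3p: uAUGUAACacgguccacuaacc

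Counts of miRNAs totalled 6855571 to 8532049 in the AM608 libraries and 5689143 to 8380591 in the RCD libraries. Counts of tRFs totalled 29889 to 46567 and 20580 to 39077, so tRF values rest on far fewer reads. miR-122-5p, the main hepatocyte miRNA, was the most abundant in both groups. The summed level of 15 hepatocyte-abundant miRNAs was 439700 to 625700 CPM (counts relative to the TMM-scaled library total, as used throughout) in AM608 and 393000 to 735500 CPM in RCD. RCD library 3 stood apart: it had the lowest hepatocyte sum, 897 miRNAs with a count where the other 15 libraries had 712 to 832, and 81 counts of the neuronal miR-124-3p where no AM608 library had more than 1. Results that lost a call or turned without RCD library 3 are given both ways. The labels name no molecular identifiers, so PCR copies of one molecule may have been counted more than once.

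The obese liver differed from the lean one in a broad set of miRNAs, with small rises in many and deep falls in one imprinted cluster. Of 421 miRNAs tested, 121 passed an adjusted p of 0.05 (28.7%, edgeR quasi-likelihood test with Benjamini-Hochberg adjustment), 57 higher in AM608 (13.5%) and 64 lower (15.2%). The sizes were unequal. The median log2 fold change among the higher ones was 0.58 and 10 of 57 exceeded 1. Among the lower ones the median size was 2.48 and 42 of 64 exceeded 1. Of the 64 lower, 11 passed the filter on low counts only with the help of RCD libraries. For these 11 a difference was built into the selection. The count was 0 of the 57 higher, which by their direction could hardly need RCD libraries. How many of the higher passed only with the help of obese libraries was not counted. In 24 of the 64, RCD library 3 was over 5 times the median of the other lean libraries (1 CPM added). For 39 miRNAs (9.26%) the 8 AM608 and 8 RCD values did not overlap, 17 of the called higher and 22 of the called lower. The split was 42 higher and 111 lower without the filter on low counts, and 49 and 82 without RCD libraries 3 and 4. The 57 higher miRNAs made up 13.1 to 15.6% of the miRNA counts in AM608 (median 14.6%) and 10.5 to 13% in RCD (median 10.9%). The 64 lower ones made up 10.1 to 13.1% (median 11.9%) and 15.8 to 17.8% (median 16.3%). Both sets were chosen by their direction in these libraries, so these shares are a description. Without RCD library 3, 66 were called higher and 67 lower, among them 54 of the 57 and 55 of the 64. In these bulk samples, fewer cells of a type and less RNA per cell cannot be told apart.

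**Figure D1:**
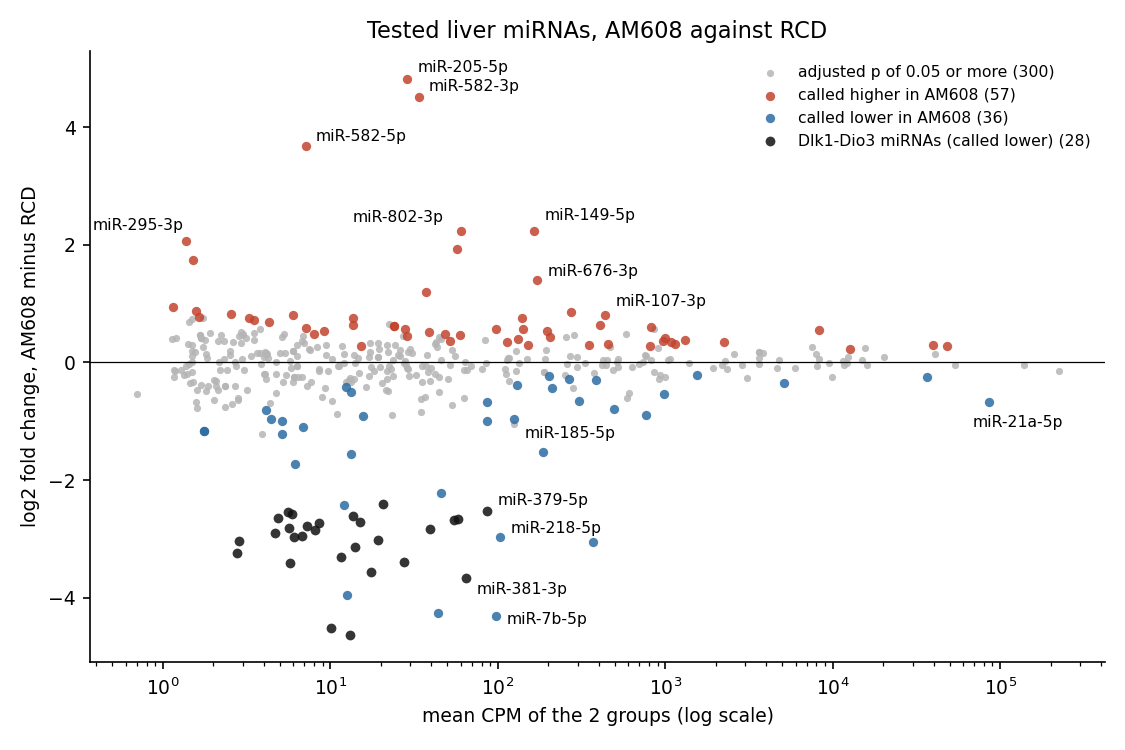
Each point is 1 of 421 tested miRNAs. The x axis is the mean of the AM608 and RCD mean levels in CPM (log scale), and the y axis is the log2 fold change of AM608 over RCD. Red points (57) were called higher, blue and black points lower, and black marks the 28 Dlk1-Dio3 miRNAs, which lie between −4.63 and −2.40.

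The rise with the smallest p was that of miR-149-5p, whose hairpin lies in an intron of Gpc1 (glypican 1, a heparan sulfate proteoglycan; GRCm38 chromosome 1, 92850378 to 92850443). Its lowest, median and highest levels were 241, 261 and 325 CPM in AM608 and 38.4, 60.2 and 77.9 CPM in RCD. The groups lay far apart, with every AM608 library well above the highest RCD library. The log2 fold change was 2.24 (SE 0.149, edgeR adjusted p = 4.63e-11). The hairpin of miR-582, in an intron of the cyclic AMP phosphodiesterase gene Pde4d (chromosome 13, 109324744 to 109324824), went up on both arms. miR-582-3p had 31.3, 71.8 and 89.8 CPM in AM608 and 1.66, 2.48 and 6.17 CPM in RCD. RCD library 3 gave the 6.17 CPM, and the groups did not overlap (log2 fold change 4.52, SE 0.378, edgeR adjusted p = 2.85e-09). The scarcer miR-582-5p had 5.07, 13.4 and 19.9 CPM against 0.300, 0.955 and 2.04 CPM (3.69, SE 0.382, edgeR adjusted p = 5.74e-08). miR-676-3p, from an X-chromosome hairpin in an intron of the ectodysplasin gene Eda (100381097 to 100381185), stood at 195, 247 and 304 CPM against 70.1, 98.0 and 110 CPM. It did not overlap between groups and its log2 fold change was 1.40 (SE 0.131, edgeR adjusted p = 1.73e-08). The other arm, miR-676-5p, rose by 1.19 (SE 0.145, edgeR adjusted p = 8.77e-07).

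miR-205-5p, a miRNA best known from epithelia, had the largest log2 fold change of any higher miRNA. It was at 25.9, 56.9 and 81.9 CPM in AM608 and at 0.715, 1.69 and 3.31 CPM in RCD. The lean livers were all at 3.31 CPM or less, and the groups were separate (4.83, SE 0.481, edgeR adjusted p = 3.23e-08). Its hairpin lies in an exon of the long non-coding RNA 4631405K08Rik (chromosome 1, 193507463 to 193507530). Both arms of miR-802, a miRNA described as raised in the liver of obese mice, were higher as well. miR-802-3p was at 84.8, 101 and 123 CPM in AM608 and 12.9, 22.5 and 29.3 CPM in RCD (2.24, SE 0.224, edgeR adjusted p = 3.23e-08). miR-802-5p was at 67.7, 89.6 and 117 CPM against 9.20, 16.1 and 73.3 CPM (1.93, SE 0.326, edgeR adjusted p = 5.34e-05). The 3p arm separated the groups, while for the 5p arm 1 RCD library overlapped the AM608 range. The hairpin is intergenic (chromosome 16, 93369720 to 93369816).

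**Figure D2:**
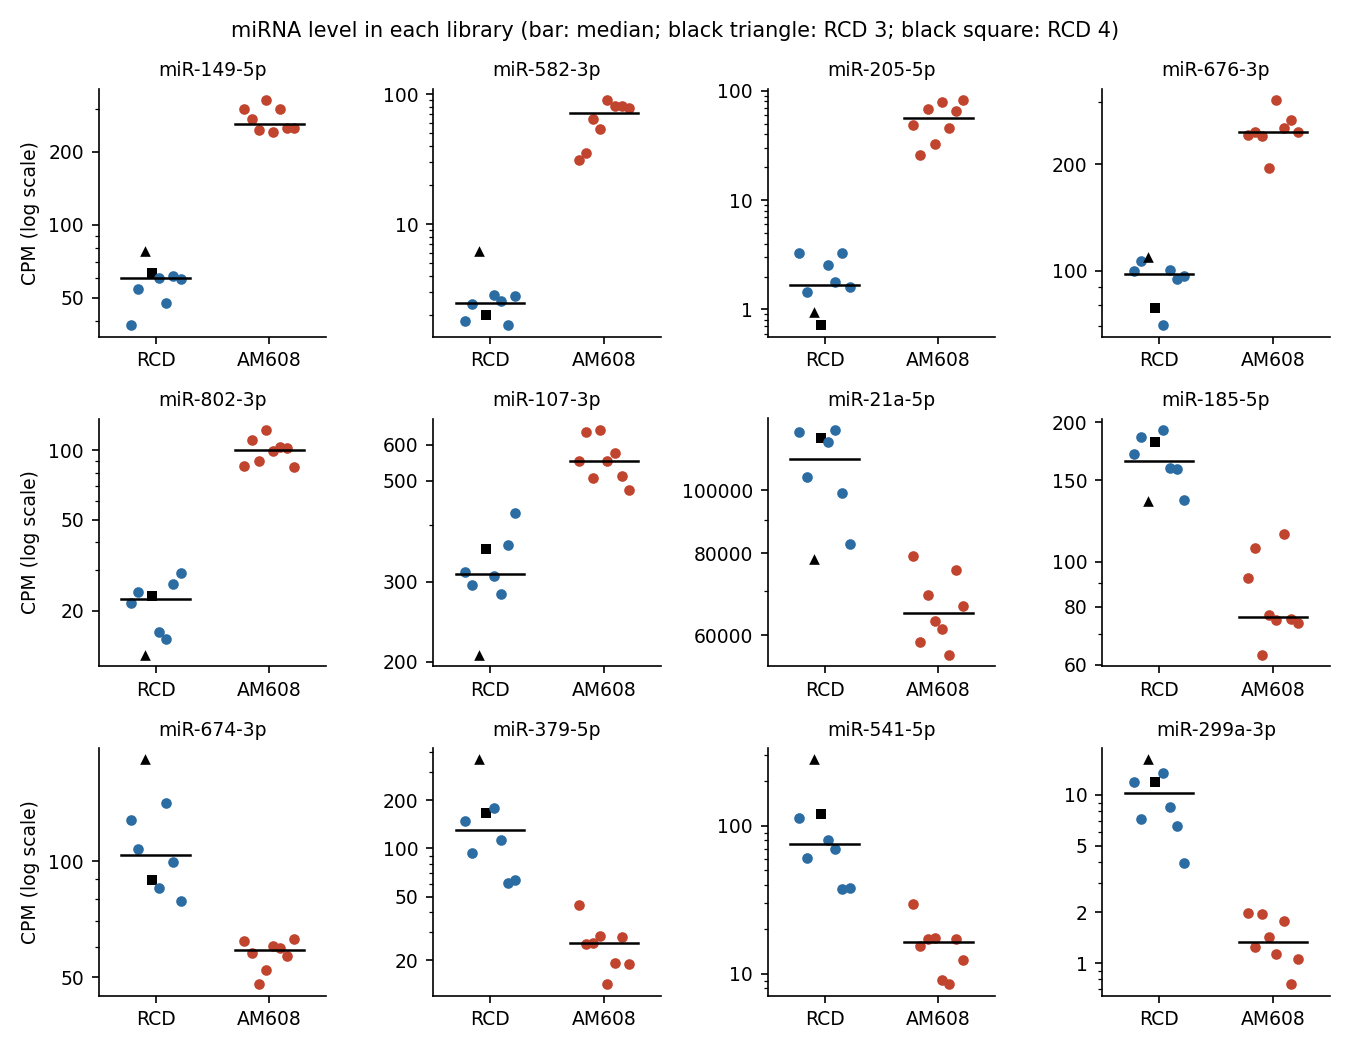
Each panel shows 1 miRNA, with its CPM (log scale) in the 8 RCD (blue or black) and 8 AM608 (red) libraries and the group median as a bar. A black triangle marks RCD library 3 and a black square RCD library 4. In 11 of the 12 panels the groups do not overlap, and in the panel of miR-21a-5p the only overlap comes from RCD library 3.

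A list of 23 tested miRNAs described in the literature as raised in fatty or obese liver held 7 called higher and 2 called lower, against 13.5% and 15.2% of all tested. Its median log2 fold change was 0.38, where that of all tested miRNAs was −0.03, and without RCD library 3 it held 9 higher and 1 lower. Its summed level, in which miR-21a-5p weighs most, was 98540 to 120400 CPM in AM608 (median 105300) and 116300 to 164100 CPM in RCD (median 150800). Besides miR-205-5p and the arms of miR-802, the higher members were miR-103-3p, miR-107-3p, miR-34a-5p and miR-183-5p. miR-103 and miR-107 come from introns of Pank3, Pank2 and Pank1, genes of the kinase that starts coenzyme A synthesis, and are described as lowering insulin sensitivity. miR-107-3p (Mir107, chromosome 19, 34820687 to 34820773) had 478, 553 and 647 CPM in AM608 and 207, 311 and 424 CPM in RCD. No RCD library reached the lowest AM608 library, and the log2 fold change was 0.81 (SE 0.115, edgeR adjusted p = 6.46e-06). miR-103-3p had 1367, 1487 and 1613 CPM against 976, 1144 and 1258 CPM, again without overlap (0.38, SE 0.0616, edgeR adjusted p = 3.04e-05). The 2 sequences differ at 1 base, so reads could move between them by the counting rule, which is not given in the sources used here. miR-34a-5p, a target of p53 that represses Sirt1, was at 34.4, 46.6 and 54.9 CPM in AM608 and 19.99, 30.8 and 43.6 CPM in RCD. These ranges overlapped, and its log2 fold change was 0.52 (SE 0.153, edgeR adjusted p = 0.0105). The lower members were miR-21a-5p and miR-10b-5p.

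Among 16 tested miRNAs linked to insulin and glucose, 5 were higher and 2 lower, with a median of −0.05 (13.5% and 15.2% of all tested), and 7 were higher and 3 lower without RCD library 3. The higher ones were miR-103-3p, miR-107-3p, miR-802-5p, miR-126a-3p and miR-203-3p, and the lower ones miR-26a-5p and miR-29a-3p. The call of miR-29a-3p (−0.35, edgeR adjusted p = 0.0361) was lost in 14 of 26 alternatives, 7 of them with 1 AM608 library left out. Of 21 tested miRNAs linked to lipid and sterol metabolism, 1 was higher, miR-34a-5p, and 4 were lower, against 13.5% and 15.2% of all tested: miR-185-5p, miR-26a-5p, miR-10b-5p and miR-370-3p. Their median was −0.12, and without RCD library 3 the count was 3 higher and 4 lower. miR-33-5p, made from an intron of Srebf2 and known for repressing the cholesterol exporter ABCA1, was named after its values were seen and was at a median of 3.85 CPM in AM608 and 4.21 CPM in RCD (log2 fold change −0.19, edgeR adjusted p = 0.522). miR-335-3p, from an intron of Mest, was at 125, 173 and 245 CPM against 85.3, 105 and 129 CPM (0.76, SE 0.128, edgeR adjusted p = 5.34e-05), the groups overlapping slightly.

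Of 17 seeds shared by tested miRNAs and holding a call, 11 had 1 called member, 5 had more, all in one direction, and 1 (let-7) had calls in both. Seeds without a call are not in these counts, and of all tested miRNAs 28.7% were called. Within the CAGUGCA seed, miR-152-3p (intron of Copz2) was at 884, 999 and 1087 CPM in AM608 and 536, 680 and 787 CPM in RCD, with no overlap (0.60, SE 0.0742, edgeR adjusted p = 1.16e-06). miR-148b-3p (intron of Copz1) was higher by 0.28 (SE 0.0882, edgeR adjusted p = 0.0189), with overlap. Its call was lost in 4 of 26 alternatives, among them the fit of only the 16 AM608 and RCD libraries. The most abundant member by far, miR-148a-3p, was at medians of 125700 and 138603 CPM and did not pass (−0.05, SE 0.122, edgeR adjusted p = 0.794). miR-221-3p and miR-222-3p, clustered on the X chromosome and both carrying the seed GCUACAU, were higher by 0.35 and 0.42 (edgeR adjusted p = 0.0226 and 0.00723). miR-221-5p was higher by 0.36 (edgeR adjusted p = 0.00637), and the scarcer miR-222-5p did not pass (0.46, edgeR adjusted p = 0.135). Thus 3 of 4 tested products of this pair of hairpins were called higher, against 13.5% of all tested miRNAs. miR-294-3p and miR-295-3p, seed AAGUGCU, belong to a cluster best known from embryonic stem cells (chromosome 7, 3220641 to 3220841). miR-295-3p was at 1.65, 2.07 and 3.36 CPM in AM608 and 0.105, 0.418 and 1.34 CPM in RCD. The values were low but did not overlap, and the log2 fold change was 2.07 (SE 0.387, edgeR adjusted p = 0.000192). Every RCD value lay below 1.40 CPM, the cutoff of the filter on low counts, and every AM608 value above it. A difference may therefore be built into the selection of miR-295-3p. miR-294-3p was higher by 1.75 (SE 0.439, edgeR adjusted p = 0.00343), with 1 RCD library inside the AM608 range.

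Of 11 tested let-7 guide strands, which restrain growth genes and carry the seed GAGGUAG in 10 tested names, 4 were higher and 1 was lower. Among all tested miRNAs, 13.5% were higher and 15.2% lower. let-7d-5p was at 8799, 9748 and 10901 CPM in AM608 and 3810, 7203 and 8222 CPM in RCD. The highest lean library stayed below the lowest obese one (0.56, SE 0.116, edgeR adjusted p = 0.000583). let-7f-5p (0.28, edgeR adjusted p = 0.0058), miR-98-5p (0.32, edgeR adjusted p = 0.00123) and let-7c-5p (0.23, edgeR adjusted p = 0.0343) were higher with overlapping groups, and let-7e-5p was lower (−0.30, edgeR adjusted p = 0.035). The calls of let-7c-5p and let-7e-5p were lost under other scalings (0.20 with relative log expression factors for let-7c-5p, −0.22 with library totals for let-7e-5p). That of let-7c-5p was also lost without RCD library 3 (0.19, edgeR adjusted p = 0.0653). The call of let-7f-5p was lost in 2 of 26 alternatives, without the filter on low counts and without RCD libraries 3 and 4. Guide strands summed to 136700 to 165100 CPM in AM608 and 98280 to 146200 CPM in RCD. None of the 10 tested passenger strands was called by edgeR, DESeq2 or limma voom, and 1 had an unadjusted edgeR p under 0.05. let-7d-3p (0.25, edgeR adjusted p = 0.069) was called in 5 of 26 alternatives: with library totals, with a replicate block, and without AM608 library 7, RCD library 2 or RCD library 8. Of 11 tested products of the X-linked miR-322 and miR-351 cluster, 4 were called, all higher, against 13.5% higher among all tested. miR-322-3p led with 202, 225 and 263 CPM against 132, 163 and 185 CPM, without overlap (0.53, SE 0.0771, edgeR adjusted p = 8.2e-06). miR-351-5p was higher by 0.57 (edgeR adjusted p = 0.000279). The other arm of the first hairpin, miR-322-5p, did not pass (−0.19, edgeR adjusted p = 0.467).

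Outside the Dlk1-Dio3 region, miR-21a-5p was the most abundant miRNA that fell. This miRNA, from the 3′ part of the Vmp1 gene (chromosome 11, 86584067 to 86584158), is known for being raised in injured and fibrotic liver. It stood at 55994, 64784 and 79304 CPM in AM608 and at 78568, 111516 and 123600 CPM in RCD. RCD library 3 was the lowest lean library, and without it the groups did not overlap. The log2 fold change was −0.68 (SE 0.110, edgeR adjusted p = 3.18e-05). Its other arm, miR-21a-3p, was at a median of 6.84 CPM in AM608 and did not pass (−0.33, edgeR adjusted p = 0.163). miR-185-5p, described as acting on genes of cholesterol uptake and synthesis, comes from an intron of Tango2 (chromosome 16, 18327401 to 18327465). It was at 63.0, 76.0 and 115 CPM in AM608 and 135, 165 and 193 CPM in RCD, without overlap (−0.96, SE 0.122, edgeR adjusted p = 1.55e-06). miR-674-3p was at 47.9, 58.7 and 62.9 CPM against 78.7, 104 and 184 CPM, also without overlap (−0.99, SE 0.134, edgeR adjusted p = 3.69e-06). miR-26a-5p, made from introns of Ctdsp2 and Ctdspl, was lower by −0.24 (SE 0.0638, edgeR adjusted p = 0.00483). miR-455-5p (intron of Col27a1) was lower by −0.55 (SE 0.128, edgeR adjusted p = 0.00191). Both arms of miR-1948 fell, by 1.52 and 1.55 on the log2 scale (edgeR adjusted p = 0.000284 and 0.000688).

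The 15 hepatocyte-abundant miRNAs split into 1 called higher (miR-802-5p), 5 called lower and 9 that did not pass, against 13.5% higher and 15.2% lower among all tested. The lower ones were miR-21a-5p, miR-26a-5p, miR-455-5p, miR-30e-5p and miR-122-3p. miR-122-5p itself was at 168639, 207044 and 247476 CPM in AM608 and at 118011, 240554 and 293424 CPM in RCD, the lean libraries spanning the obese ones (−0.14, SE 0.142, edgeR adjusted p = 0.477). The call of miR-122-3p, −0.89 (edgeR adjusted p = 0.0242), was lost without RCD library 5 (−0.41) or RCD library 8 (−0.78). That of miR-30e-5p, −0.22 (edgeR adjusted p = 0.0439), was lost in 17 of 26 alternatives, among them the one without RCD library 3 (−0.23, edgeR adjusted p = 0.0505). miR-192-5p and miR-194-5p did not pass (−0.04 and 0.04, edgeR adjusted p = 0.803 and 0.846). miR-132-3p, the target in the AM132 group, was at a median of 22 CPM in AM608 and 16.8 CPM in RCD and did not pass (0.17, edgeR adjusted p = 0.686).

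The Dlk1-Dio3 region of chromosome 12 is an imprinted domain whose long non-coding transcripts, expressed from the maternal chromosome, carry one of the largest miRNA clusters of the genome. Its miRNAs are abundant in embryo and brain and scarce in adult liver. Of 108 listed products, 90 had a count and 28 passed the filter on low counts. All 28 of these were called lower in AM608, with log2 fold changes from −4.63 to −2.40 and a median of −2.88. For 20 of them the groups did not overlap. Among all 421 tested miRNAs, 15.2% were called lower and 9.26% did not overlap. Of the 28, 8 passed the filter only with the help of RCD libraries, so that a difference was built into their selection, and 12 were above 1.40 CPM in all 8 AM608 libraries. Without the filter, 60 of 90 were called lower and none higher.

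All but miR-370-3p of those tested lie in a pair of runs. The first, Mir337 to Mir136 (chromosome 12, 109585789 to 109595388), held 8 of them with a median of −2.87. The second, Mir379 to Mir369 (109709060 to 109743496), held 19 with a median of −2.86. The most abundant, miR-379-5p, was at 14.1, 25.6 and 44.5 CPM in AM608 and at 60.7, 130 and 359 CPM in RCD (−2.53, SE 0.341, edgeR adjusted p = 3.57e-06). miR-411-5p was at 7.44, 14.6 and 25.1 CPM against 36.7, 83.9 and 231 CPM (−2.67, SE 0.340, edgeR adjusted p = 1.55e-06). In both, the highest obese library was below the lowest lean one, and RCD library 3 was the highest of all. miR-299a-3p, which had the smallest p of the cluster, was at 0.747, 1.34 and 1.97 CPM against 3.94, 10.2 and 16.3 CPM (−2.82, SE 0.273, edgeR adjusted p = 2.61e-08). The arms of miR-379 and of miR-411 with the shared seed AUGUAAC fell together, by 2.64 and 2.96 on the log2 scale (edgeR adjusted p = 5.51e-06 and 3.86e-06).

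RCD library 3 moved the size of these changes but not their direction. The summed level of the 28 was 70.0, 133 and 209 CPM in AM608 and 298, 637 and 3566 CPM in RCD, where 3566 CPM is RCD library 3 and the next highest is 936 CPM in RCD library 4. Without RCD library 3 all 28 were still called lower, with a median of −2.21 and a range from −3.27 to −1.22. Without RCD libraries 3 and 4 the median was −2.14 and again 28 of 28 were called. miR-370-3p moved most, from −4.63 with all libraries to −1.22 without RCD library 3, while miR-376b-3p stayed near its value (−3.30 and −3.27).

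Neuronal miRNAs did not move as one. miR-124-3p and miR-9-5p were highest in RCD libraries 3 and 4, which also had the highest Dlk1-Dio3 sums. Of 15 neuronal markers, 8 were tested, 4 of them called lower (miR-9-5p, miR-137-3p, miR-338-3p and miR-218-5p) and none higher. Among all tested miRNAs, 15.2% were lower and 13.5% higher. Without RCD library 3, 3 neuronal markers were lower and 3 higher. Counts of miR-129-5p were 138 to 326 in AM608, 73 to 113 in RCD without library 3 and 2472 in it. Median counts of miR-128-3p were 4046.5 in AM608 and 2796 in RCD. Raw counts of miR-124-3p, the defining neuronal miRNA, were 0 or 1 in all AM608 libraries and 0, 1, 81, 27, 9, 0, 14 and 6 in RCD libraries 1 to 8. Counts of miR-9-5p were 13 to 61 in AM608 and 11, 23, 5067, 317, 214, 104, 206 and 54 in RCD libraries 1 to 8. The Dlk1-Dio3 sums were 744, 461, 3566, 936, 750, 530, 298 and 355 CPM in the same order, against 70.0 to 209 CPM in AM608. The lowest lean sum, in RCD library 7, went with 206 counts of miR-9-5p, and the 744 CPM of RCD library 1 with 11. RCD libraries 1 and 2 had 0 and 1 counts of miR-124-3p and fewer counts of miR-9-5p than the AM608 median library, whereas RCD library 6 had 0 of miR-124-3p but 104 of miR-9-5p, above every AM608 library. The part of other tissue in the Dlk1-Dio3 sums was not tested for any library.

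**Figure D3:**
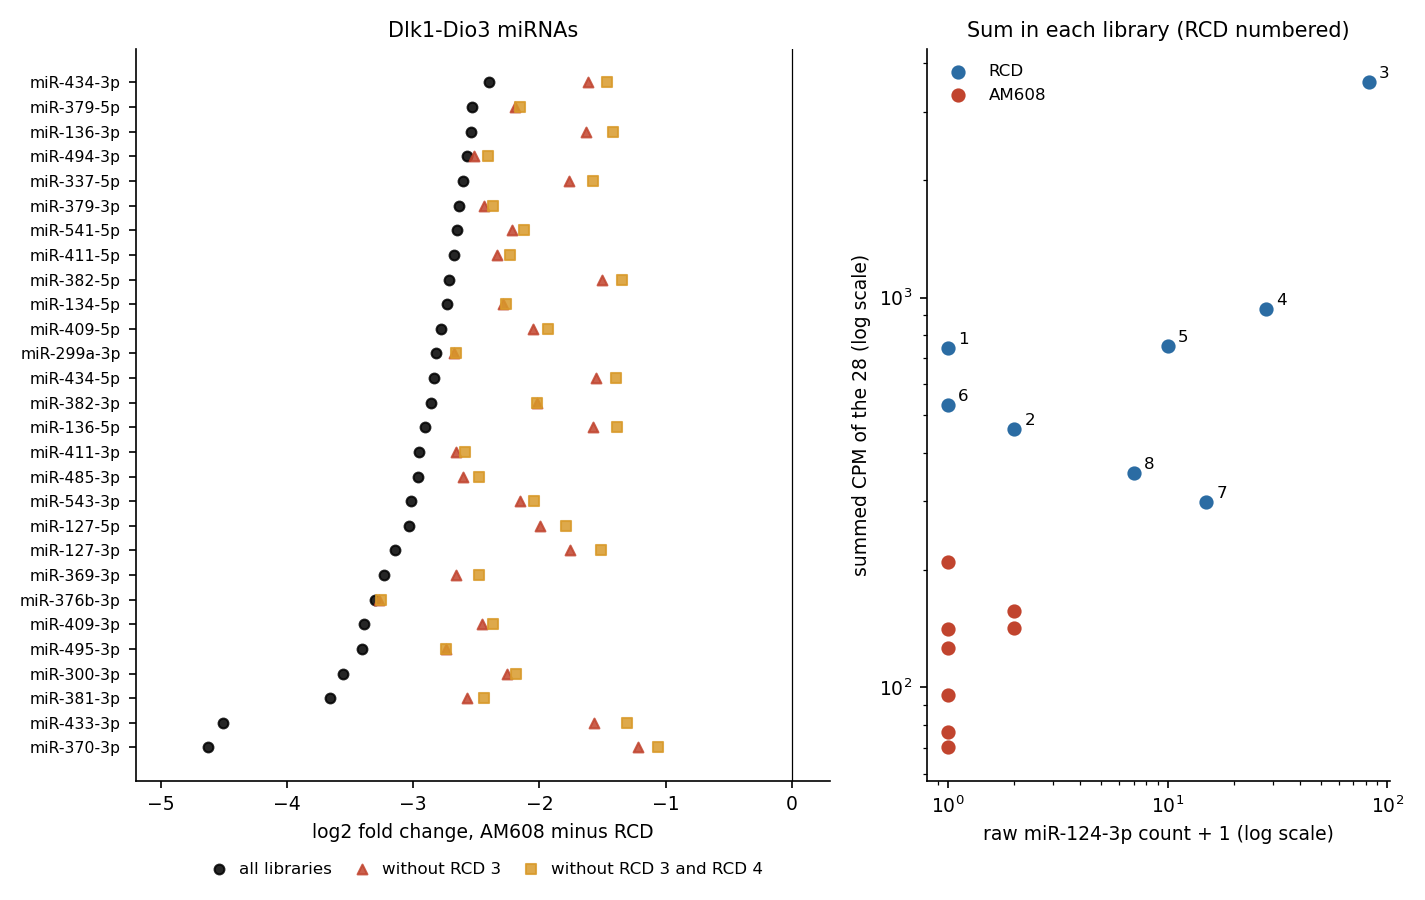
On the left, each row is 1 of the 28 tested Dlk1-Dio3 miRNAs, with its log2 fold change of AM608 over RCD from all libraries (black circles), without RCD library 3 (red triangles) and without RCD libraries 3 and 4 (orange squares); the mark nearest zero is at −1.06. On the right, each point is 1 library, with its raw miR-124-3p count plus 1 on the x axis and the summed CPM of the 28 on the y axis (both log scales); all RCD libraries (numbered) lie above all AM608 libraries.

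Some calls turned or were lost without RCD library 3. miR-218-5p had 44 to 87 counts in the other RCD libraries, 78 to 408 in AM608 and 13285 in RCD library 3. Its log2 fold change was −2.97 with all libraries (edgeR adjusted p = 0.0274) and 1.13 without RCD library 3, so that its direction turned. miR-7b-5p (−4.31, and −0.08 without RCD library 3), miR-10b-5p (−3.06 and −0.84) and miR-1a-3p (−2.22 and −1.33) lost their calls. RCD library 3 was the highest lean library in 39 of the 64 lower calls, 11 of the 57 higher ones and 129 of the 421 tested. In 24 of the 64 it was over 5 times the median of the other lean libraries (1 CPM added).

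The lean libraries were also less alike than the obese ones. The SD over libraries on the log2 CPM scale was larger in RCD than in AM608 for 348 of 421 miRNAs, with a median ratio of 1.76. Without RCD library 3 it was larger for 293, with a median ratio of 1.32, and without RCD libraries 3 and 4 for 286, with a median ratio of 1.37. Marker lists of other cell types were short, and among all tested miRNAs 13.5% were higher and 15.2% lower. None of 8 leukocyte miRNAs was called by edgeR (1 by DESeq2, none by limma voom, 1 at an unadjusted p under 0.05), and without RCD library 3, 2 were called higher. None of 3 erythroid miRNAs was called by any of these tools, with 2 at an unadjusted p under 0.05. All 3 were negative, with a median of −0.60 (−0.35 without RCD library 3), and their sum was 333.7 to 785.6 CPM in AM608, 297.5 to 1078 CPM in RCD without library 3 and 1773 CPM in it. Stellate and mesenchymal markers gave 1 higher (miR-152-3p) and 2 lower (miR-145a-5p and miR-10b-5p) of 11. Without RCD library 3 miR-10b-5p lost its call, which left 1 higher and 1 lower. The stellate sums were 14300 to 23880 CPM in AM608, 16570 to 21020 CPM in RCD without library 3 and 33860 CPM in it. Of 2 tested endothelial miRNAs, 1 was called higher, miR-126a-3p from Egfl7 (0.29, edgeR adjusted p = 0.0104). It was at 40410, 42603 and 47048 CPM against 26564, 35328 and 42779 CPM, with overlap. Its call was lost in the fit of only the 16 AM608 and RCD libraries. The other, miR-126a-5p, did not pass (−0.16, edgeR adjusted p = 0.552). Without RCD library 3, 2 of 3 tested endothelial miRNAs were called higher. The biliary sum ran from 802 to 3417 CPM in AM608 and from 519 to 2083 CPM in RCD, and 1 of its 6 members, miR-200c-3p, was higher (0.48, edgeR adjusted p = 0.0256), with a list median of 0.48 (0.38 without RCD library 3). The call of miR-200c-3p was lost in 4 of 26 alternatives, among them the fit of only the 16 AM608 and RCD libraries. The 3 tested muscle miRNAs gave 1 lower call, miR-1a-3p, which was lost without RCD library 3. Their sum was 323.3 CPM in RCD library 3 and 148.1 CPM in RCD library 4. It was 18.08 to 37.29 CPM in the remaining RCD libraries and 10.33 to 37.53 CPM in AM608. Of 3 tested pancreas and endocrine miRNAs, 1 was called lower, miR-7b-5p, and none without RCD library 3.

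The ratio of both arms within a library does not depend on the scaling of libraries and was examined in 107 hairpins with both arms tested. Both arms were called in 18 hairpins, 9 with both higher and 9 with both lower, and in none did they go opposite ways. The ratio itself differed in 9 hairpins (8.41%, two-sided exact permutation test, adjusted over the 107), 3 with more 5p relative to 3p in AM608 and 6 with less. In 5 of the 9 the ratios did not overlap between groups, which gives the smallest p these assignments allow (exact p = 0.000155, adjusted p = 0.00333). Without AM608 library 5 the count was 5, and without RCD library 3 it was 15.

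miR-200b, a keeper of the epithelial state, had the largest shift. Its log2 ratio of 5p to 3p counts was −8.73, −8.47 and −7.54 in AM608 and −6.90, −6.48 and −6.28 in RCD, a difference of −1.78. The scarce 5p arm was lower (−1.21, edgeR adjusted p = 0.0299) while the 3p arm did not pass (0.57, edgeR adjusted p = 0.221). The call of the 5p arm was lost in 9 of 25 alternatives, among them library totals and no filter on low counts. For miR-185 the ratio was 2.78, 3.35 and 4.18 in AM608 and 4.37, 4.74 and 5.34 in RCD, a difference of −1.42. Its 5p arm fell, as given above, and its 3p arm did not pass (0.44, edgeR adjusted p = 0.109). For miR-674 the ratio moved the other way by 1.09, from −4.01, −3.23 and −2.70 in RCD to −2.55, −2.17 and −1.73 in AM608, with the 5p arm not passing (0.15, edgeR adjusted p = 0.407). In miR-139 (difference −0.52) the called arm was the scarce 3p one, higher by 0.58 (edgeR adjusted p = 0.000216). In miR-148a (−0.37) it was the scarce 5p arm, lower by −0.43 (edgeR adjusted p = 0.0119). The ratios of let-7d (0.34), miR-345 (−0.90), miR-338 (0.94) and miR-3068 (−0.30) also passed, with overlapping groups and adjusted exact p from 0.0194 to 0.037.

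**Figure D4:**
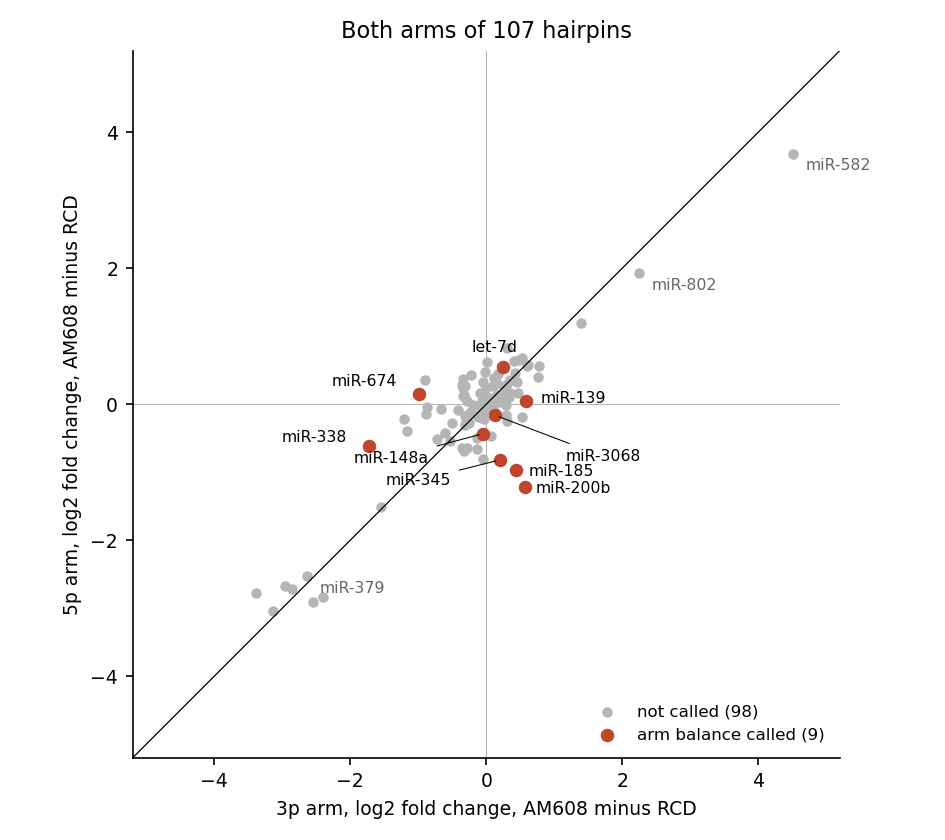
Each point is 1 of 107 hairpins, with the log2 fold change of AM608 over RCD of its 3p arm on the x axis and of its 5p arm on the y axis. Red points (9) passed the exact test of the arm ratio, grey points (98) did not, and the diagonal marks equal change of both arms. miR-582 and miR-802 lie near the diagonal at the upper right, and miR-200b and miR-185 lie below it.

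The AM132 livers offer values from a second obese group that received a different LNA. They were fitted together with AM608 and RCD, so the comparisons share libraries and are given side by side only. miR-149-5p averaged 273 CPM in AM608, 57.8 in RCD and 250 in AM132. miR-802-3p averaged 99.9 CPM in AM608, 21.1 in RCD and 102 in AM132. miR-582-5p had a log2 fold change over RCD of 3.69 in AM608 and 0.09 in AM132 (edgeR adjusted p = 0.878). miR-676-5p had 1.19 in AM608 and −0.05 in AM132 (edgeR adjusted p = 0.8). miR-185-5p had −0.96 in AM608 and 0.44 in AM132, and miR-674-3p −0.99 and 0.31. miR-379-5p had −2.53 and −2.10. No uninjected obese group was among the 3, so what goes with the diet and what with an oligonucleotide cannot be told apart.

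The tRFs on which the results turn are shown next, as decoded from their names in the deposited table, 5′ to 3′. CCA at a 3′ end is in capitals. The parent amino acids named below come from general knowledge of tRNA sequences and were not matched to a reference here. The first 5 were called higher in AM608 and the next 8 lower.
tRF-21-V47PU9XWE: tagtggttagtactctgcgtt
tRF-18-S8V0J8DR: gtcggtagagcatgggac
tRF-18-HSQSD2D2: atccggctcgaaggaCCA
tRF-18-HRH7MSD2: atcccatcctcgtcgCCA
tRF-16-96L85DE: tgtcacgcgggagact
tRF-20-R29P4P9L: ggggatgtagctcagtggta
tRF-16-R29P4PE: ggggatgtagctcagt
tRF-21-PS5P4PW3B: gcccggAtagctcagtcggta
tRF-16-R9JP9PD: ggttccatagtgtagc
tRF-20-RPM830MM: ggtagcgtggccgagcggtc
tRF-24-SP58309M2S: gtcaggatggccgagtggtctaag
tRF-16-PJ5830E: gcagcgatggccgagt
tRF-23-YU4RRWRBD2: ttcgactcccggtgtgggaaCCA
The capital A in the fragment that starts like a lysine tRNA marks base 7, where the more abundant lysine form differs (A7C between tRF-19-PS5P4PJ4 and tRF-30-PSQP4PW3FJI0). That 30-nt form is shown for comparison, with base 7 in capitals.
tRF-30-PSQP4PW3FJI0: gcccggCtagctcagtcggtagagcatgag

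A few tRFs were called between obese and lean liver, in tables of far fewer counts than those of miRNAs. Of 295 tested, 13 were called (4.41%), 5 higher in AM608 (1.69%) and 8 lower (2.71%), and 74 had an unadjusted p under 0.05. With library totals as the scaling the split was 12 higher and 7 lower, as the median of all tested tRFs shifted by 0.10. For 1 tRF (0.339%) the groups did not overlap. None of the 6 most abundant tRFs was called by edgeR. The leading one, tRF-26-86J8WPMN1EE, which starts like a glutamate tRNA, was at 109522, 152984 and 191169 CPM of tRF counts in AM608 and at 66356, 177162 and 269643 CPM in RCD (−0.27, SE 0.244, edgeR adjusted p = 0.504).

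The lower tRFs were mostly 5′ fragments. tRF-20-R29P4P9L, the start of an alanine tRNA, was at 244, 517 and 690 CPM in AM608 and 1000, 2045 and 2421 CPM in RCD, the only tRF without overlap (−1.86, SE 0.503, edgeR adjusted p = 0.0298). Its first 16 bases, counted as tRF-16-R29P4PE, were at 459, 810 and 1537 CPM against 1408, 1950 and 2739 CPM (−1.23, SE 0.356, edgeR adjusted p = 0.0432), a call lost without RCD library 3 (−1.14, edgeR adjusted p = 0.0554). tRF-21-PS5P4PW3B, the start of a lysine tRNA, was at 534, 862 and 1254 CPM against 1131, 2302 and 4929 CPM, and only RCD library 3, the lowest lean library, kept the groups from separating (−1.40, SE 0.294, edgeR adjusted p = 0.00881). Starts of valine (tRF-16-R9JP9PD, −1.54) and leucine tRNAs (tRF-20-RPM830MM, −1.28, and tRF-24-SP58309M2S, −1.05), the unassigned tRF-16-PJ5830E (−1.24) and a CCA-ending glutamate fragment (tRF-23-YU4RRWRBD2, −0.91) were lower with overlap. Values in AM132 differed among these. Against RCD, tRF-20-R29P4P9L had a log2 fold change of 0.38 in AM132 and tRF-21-PS5P4PW3B 0.24, neither passing (edgeR adjusted p = 0.646 and 0.626), while tRF-16-R9JP9PD had −2.38.

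The higher tRFs were internal or 3′ fragments. tRF-21-V47PU9XWE, from within a histidine tRNA, was at 798, 1459 and 1750 CPM in AM608 and 468, 711 and 1000 CPM in RCD (1.00, SE 0.206, edgeR adjusted p = 0.00881). tRF-18-HRH7MSD2, the CCA end of a serine tRNA, was at 1534, 4786 and 6112 CPM against 1310, 1485 and 3276 CPM (1.26, SE 0.307, edgeR adjusted p = 0.0166). The groups overlapped in both. tRF-18-HSQSD2D2, the CCA end of a tyrosine tRNA, was higher by 0.59 (SE 0.142, edgeR adjusted p = 0.0166). A near copy that differs by A1T, tRF-18-YSQSD2D2, was named after its value was seen and had 0.57 and did not pass (SE 0.173, edgeR adjusted p = 0.0537). tRF-18-S8V0J8DR, from within a lysine tRNA, had 0.94 and tRF-16-96L85DE 1.22.

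Fragments from the 5′ end of several tRNAs were mostly negative, and CCA ends differed by length, though few single fragments passed. Of all 295, 140 had a positive and 155 a negative log2 fold change. Of 54 fragments in 8 families that begin at the 5′ end of a tRNA, defined by their first 12 bases, 51 were negative, with 4 called lower and none higher. Those that start tcccacatggtc (glutamate) were negative in 10 of 11, with a median of −0.41, and those that start gcccggctagct (lysine) in 8 of 8, with a median of −0.59. The other lysine form, gcccggatagct, gave 7 of 7 (−0.57), and tcctcgttagta (aspartate) gave 7 of 7 (−0.77). The start ggggatgtagct (alanine) gave 6 of 8 (−0.52) and ggtagcgtggcc (leucine) 5 of 5 (−0.62). Without RCD library 3 the start gcccggctagct was negative in 6 of 8 and tcctcgttagta in 6 of 7. There tcccacatggtc was negative in 11 of 11 and ggggatgtagct in 8 of 8. Of the 295, 32 passed the filter on low counts only with the help of RCD libraries, which favours negative values. How many passed only with the help of obese libraries was not counted. Of 66 CCA-ending fragments, 33 were positive and 33 negative: of 20 with 18 bases, 17 were positive (median 0.32, 2 called higher), and of 24 with 22 bases, 19 were negative (median −0.38, none called). Of 16 fragments of 30 bases, 14 were negative with all libraries (median −0.48), but without RCD library 3 only 11 of 17 were (median −0.07). The families were formed after the values were seen, and their members overlap in sequence, so they are no independent repeats.

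**Figure D5:**
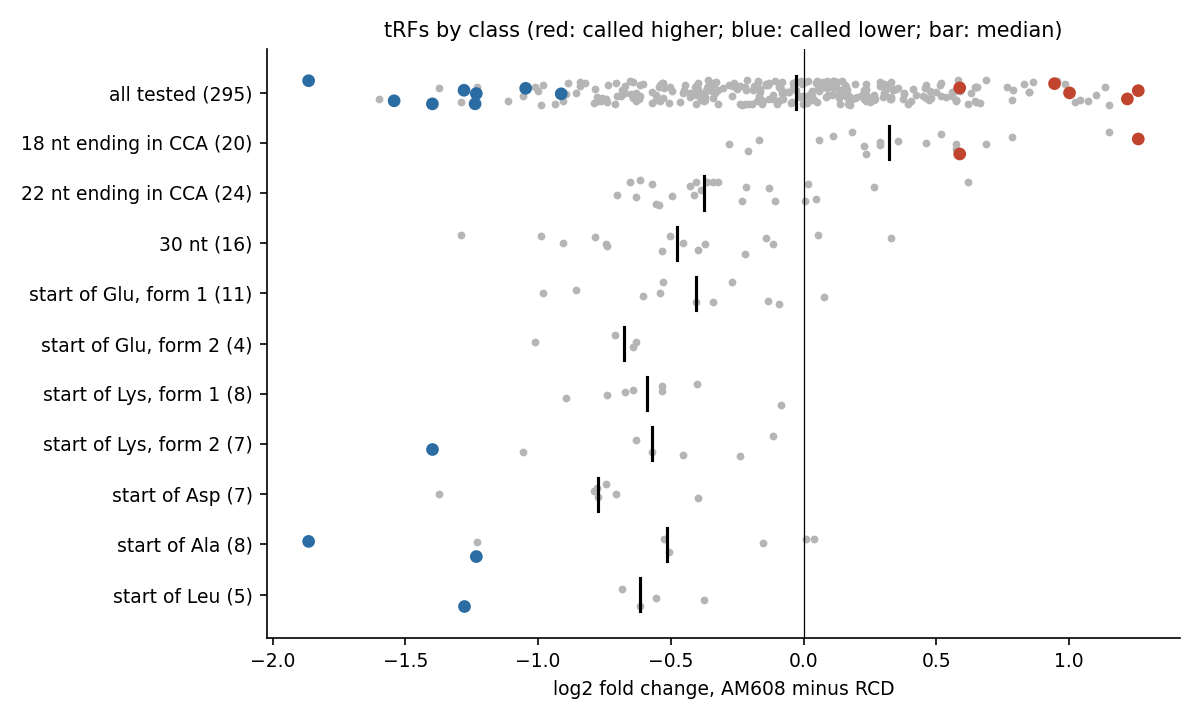
Each point is 1 tested tRF, placed by its log2 fold change of AM608 over RCD, in rows for all 295 and for classes by CCA end, length or 5′ start (number of tRFs in parentheses; form 1 and form 2 are the more and the less abundant start). Red points were called higher and blue lower, and the bar is the class median, which is 0.32 for 18-base CCA ends and negative in the other rows.

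Shares of whole libraries overlapped between the groups and did not pass after adjustment. tRFs numbered 4.11, 5.38 and 5.50 per 1000 miRNA counts in AM608 and 3.07, 3.86 and 5.35 in RCD, and all 8 AM608 libraries were above the RCD median. The difference of the log2 means was 0.297 (two-sided exact permutation p = 0.0284, adjusted over 4 values 0.0606). Fragments of 18 bases took 26.9, 34 and 35.5% of tRF counts in AM608 and 22.6, 27.6 and 34.6% in RCD (0.225, adjusted exact p = 0.0606). CCA-ending ones took 29.6, 36.6 and 40.0% against 25.9, 30.9 and 37.0% (0.177, adjusted exact p = 0.0733). Fragments of 30 bases or more took 4.12, 5.61 and 12% against 5.37, 6.62 and 22.9%, the last from RCD library 3 (−0.395, adjusted exact p = 0.217). Each of the first 3 passed when AM608 library 7 was left out (adjusted exact p = 0.0373 each), the tRF ratio also without RCD library 8 (0.0448), and without RCD library 1 the share of 18-base fragments (0.0373) and of CCA ends (0.0413).

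The tRF calls depended on which libraries were in the fit. Their number was 24 without RCD library 3, 21 without AM608 library 1, 6 without AM608 library 5 or 6, 7 without RCD library 4, and 8 without AM608 library 8, RCD library 2 or RCD library 8. Without both RCD library 3 and AM132 library 8, whose tRF total of 80578 was the highest of the study, 44 were called. One of the 13, tRF-18-HRH7MSD2, was called under every alternative examined.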

How the data were processed

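Total RNA of liver was extracted with the miRNeasy kit and made into libraries with the NEBNext small RNA set, per the labels' protocols. FastQC was used, per the submitters' processing notes. Not given in the sources used here: the aligner, genome build and counting rule. The authors deposited raw counts per miRNA (1908 names) and per tRF (8456 names) with 24 libraries each, and no library was left out. Column names gave the group. Features that passed filterByExpr over all 24 libraries (421 miRNAs, 295 tRFs) were scaled by TMM and tested with edgeR 4.0.16 (robust quasi-likelihood) in R 4.3.3, with Benjamini-Hochberg adjustment over the table and a threshold of 0.05. Limma 3.58.1 (voom) and DESeq2 1.42.0 were alternatives, with other scalings, filters, a replicate block and left-out libraries. Arm ratios (1 count added to each arm) and tRF shares were tested by exact permutation. Libraries of a group always differed by more than counting noise, with chi-square at least 27.6 times its degrees of freedom for miRNAs and 2.1 times for tRFs. Sequences were matched by name for 367 of the 421 miRNAs, with host genes from the annotation of that build, and tRF sequences were decoded from all 8456 names. Scripts were tested on simulated data. Named miRNAs were those with the smallest p (12 per direction), the 10 most abundant, called list members and arm-ratio hairpins with their partners, and named tRFs likewise (8 per direction) with the 6 most abundant. A few more miRNAs were named outside these rules, among them products of miR-221, miR-222, miR-294, miR-295 and miR-1948. The comparison, its members and the lists were chosen with earlier results of these data known.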

Additional observations from a re-analysis of the deposited data

Results flagged for a closer look

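In 116 sets of 8 libraries examined, 10 held 1 library far from the other 7, where chance gives about 1 in 20. RCD library 3 accounted for 4 of them. On the log2(CPM + 1) scale it had 2.84 for miR-582-3p, where the other RCD libraries had 1.41 to 1.94, and 9.14 for miR-381-3p, where they had 4.60 to 6.63. Its stellate and mesenchymal marker sum was 15.0 on the log2(summed CPM + 1) scale, against 14 to 14.4. Its share of tRF counts in fragments of 30 bases or more was 22.9%, against 5.37 to 10.5%.

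The others were spread over 6 libraries. AM608 library 1 had 12% of tRF counts in fragments of 30 bases or more, against 4.12 to 7.84% in the other AM608 libraries. AM608 library 5 had 0.389 for miR-379-3p on the log2(CPM + 1) scale, against 1.04 to 1.58. AM608 library 3 had 7.94 for tRF-20-R29P4P9L, against 8.87 to 9.43, and RCD library 1 had 11.7 for tRF-18-HRH7MSD2, against 10.4 to 10.9. The log2 ratio of 5p to 3p was −7.54 for miR-200b in AM608 library 6, against −8.73 to −8.24, and 7.73 for miR-139 in RCD library 5, against 6.86 to 7.18.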

How the results depend on the processing

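The number of called miRNAs ran from 88 to 153 over all alternatives, within 1.5 times of 121, and from 112 to 133 when 1 library was left out, while the split went from 57 higher and 64 lower to 42 and 111 without the filter. Of 81 named called miRNAs, 55 were called under every alternative, and of 13 named tRFs 1 was. The called products of miR-221, miR-222, miR-294, miR-295 and miR-1948 are not among the 81, and their calls under the alternatives are not given. miR-218-5p reversed from −2.97 to 1.01 with DESeq2, 0.0854 with limma voom, 0.54 with the replicate block, 1.13 without RCD library 3 (also with AM132 library 8 left out) and 1.08 without RCD libraries 3 and 4, and ran from −3.15 to 1.13 when 1 library was left out. The 13 tRF calls became 31 with only the 16 libraries, 5 without a filter on low counts, 3 at a mean of at least 10 CPM, 30 with DESeq2, 44 without RCD library 3 and AM132 library 8, and 6 to 24 when 1 library was left out. The 28 Dlk1-Dio3 calls became 60 without the filter and 13 at a mean of at least 10 CPM, where more or fewer members were tested. The 9 arm-ratio calls ran from 5 to 15 when 1 library was left out. With 1 library left out, the log2 differences of the tRF shares ran from 0.24 to 0.354 (tRFs per 1000 miRNA counts), 0.141 to 0.214 (CCA ends) and 0.185 to 0.272 (18 bases). Same-numbered libraries were not paired: their deviations correlated from −0.178 to 0.357 for miRNAs and −0.12 to 0.335 for tRFs, and 1 of 8 was highest with its own number in each table. With the replicate block 88 miRNAs, 24 tRFs and 26 of 27 Dlk1-Dio3 miRNAs were called, and 0 arm ratios by a sign-flip test over 8 pairs. The smallest p of 8 pairs cannot pass after adjustment over 107 hairpins unless many reach it. This 0 therefore decides nothing about the arm ratios. The tRF totals limit what single tRFs can show. Apart from the settings named, the cause of these shifts was not tested.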
